A study of Mus musculus with 6 samples.

Results

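The results concern 10 genes, Sdcbp2, Atg9b, Emp3, Tinag, Lrrc10b, Cyb561, Themis3, Naa80, Gm14137 and Ecm1, taken from a list of named members out of 21911 protein-coding genes with an annotated start. They had been listed because chromatin at their promoters was more open in olfactory horizontal basal cells 24 h after injury than in uninjured cells. The values that chose them were promoter cut sites in these same 6 libraries, so the comparison of injured with uninjured cells is a description for the members: their ranks and calls in that contrast are given to show how they were chosen, with no p-value and as support for nothing. In the edgeR fit over the 17140 promoters that passed a filter on low counts, 7 of the 10 members were among the 10 promoters with the smallest p, and 1 of the 10 was among the 10 largest log2 changes.

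Single-cell ATAC-seq, in which a transposase cuts accessible DNA and each cell's fragments carry a barcode, was run on 3 uninjured libraries (treatment given as control) and 3 libraries taken 24 h after injury with methimazole, a drug that destroys most of the olfactory epithelium but spares its basal layer. All 6 came from mice of genotype Krt5CreER; Rosa26LSL-YFP/LSL-YFP, aged 8 weeks in replicate 1, 6 weeks in replicate 2 and 6 to 7 weeks in replicate 3 of both groups. The Krt5 promoter drives the recombinase in basal cells, and the YFP reporter then stays on in those cells and in all their descendants, so a YFP sort can also hold cells that have left the basal state. Dorsal epithelium was dissociated animal by animal, and cells positive for YFP and negative for the dead-cell dye propidium iodide were sorted.

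Horizontal basal cells are the reserve stem cells of the olfactory epithelium: they lie flat on the basement membrane, rest in uninjured tissue and divide to rebuild the epithelium after severe damage. A closed promoter is wrapped in nucleosomes, and opening of the DNA around a start site, or of an enhancer close to it, is often an early step of gene activation, though accessibility by itself is not expression. AP-1, the FOS and JUN family of dimers, binds a short palindrome and is a general responder to wounding and stress. Its motif was searched here as TGANTCA, a loose pattern that allows any base at N.

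Over barcodes with 2000 or more fragments, the libraries held 454, 889 and 629 uninjured cells and 1338, 420 and 746 injured cells, with 14825320 to 44875242 cut sites a library. The promoter signal of 6 horizontal basal markers, summed, was 82.7 to 116 CPM (counts scaled to library depth) in uninjured and 77.9 to 116 CPM in injured libraries. Uninjured replicate 3 and injured replicate 3 shared 34 barcodes, in each of which 92.9% to 99.0% of the fragments of the smaller copy were identical in position to fragments of the larger. Other pairs shared 0 to 4 barcodes, among them copies with over 50% identical fragments: 3 between uninjured replicate 1 and injured replicate 2, 2 between uninjured replicate 2 and injured replicate 2, 1 between uninjured replicates 1 and 2 and 1 between injured replicates 1 and 2. Leaving out the smaller copies left the median log2 change of the members at 2.93, and leaving out both replicate 3 libraries gave 3.18. In injured replicate 2, 1 barcode held 1746401 fragments, 14.75% of that library, with 13.7% of its cut sites in open chromatin and 1.24% of the library's cut sites at member promoters. The replicates are separate animals per the labels' protocols.

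The stretches below show where the members were most open after injury, which need not be where they changed most. Each is the 200 bp with the highest signal of the injured libraries in the promoter window, widened to the nearest AP-1 match for Gm14137, and cut at the start site for Sdcbp2 and Ecm1; capitals mark TGANTCA on either strand. The sequences are from the RefSeq GRCm38 genome, on the strand of the gene: chr2:151572459-151572621 (plus) for Sdcbp2, chr3:95739570-95739695 (minus) for Ecm1, chr2:119174204-119174460 (plus) for Gm14137, chr11:105953429-105953628 (minus) for Cyb561, chr5:24392742-24392941 (minus) for Atg9b and chr17:66595318-66595517 (minus) for Themis3. For Emp3 (chr7:45920756-45920784, minus) and Naa80 (chr9:107579570-107579598, plus) the signal lay in transcribed untranslated exon, and only 29 bases at the match are shown. The 200 bp of Naa80 also overlap annotated exon of Hyal1, and cut sites cannot be assigned to either gene.
Sdcbp2: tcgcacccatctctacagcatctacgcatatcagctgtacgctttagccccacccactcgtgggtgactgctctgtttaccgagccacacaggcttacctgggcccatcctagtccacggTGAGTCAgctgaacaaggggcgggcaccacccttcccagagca
Ecm1: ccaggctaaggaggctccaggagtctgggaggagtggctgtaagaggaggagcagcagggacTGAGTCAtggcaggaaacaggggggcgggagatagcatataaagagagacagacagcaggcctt
Gm14137: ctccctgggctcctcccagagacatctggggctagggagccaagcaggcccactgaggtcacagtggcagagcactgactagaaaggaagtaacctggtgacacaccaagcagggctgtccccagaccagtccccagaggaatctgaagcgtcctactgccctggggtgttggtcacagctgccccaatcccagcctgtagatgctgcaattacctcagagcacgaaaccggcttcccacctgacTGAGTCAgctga
Cyb561: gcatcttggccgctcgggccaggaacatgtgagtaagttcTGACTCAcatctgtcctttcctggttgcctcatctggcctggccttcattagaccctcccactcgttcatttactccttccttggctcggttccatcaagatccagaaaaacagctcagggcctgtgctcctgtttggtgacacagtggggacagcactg
Atg9b: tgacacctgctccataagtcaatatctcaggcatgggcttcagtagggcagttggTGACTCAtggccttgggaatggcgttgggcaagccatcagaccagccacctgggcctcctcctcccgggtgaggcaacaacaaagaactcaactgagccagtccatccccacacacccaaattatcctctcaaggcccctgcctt
Themis3: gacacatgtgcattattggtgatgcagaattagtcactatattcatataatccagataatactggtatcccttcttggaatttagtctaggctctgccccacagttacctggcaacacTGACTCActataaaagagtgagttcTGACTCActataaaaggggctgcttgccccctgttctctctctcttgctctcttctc
Emp3: ggggaTGAGTCActcgTGACTCActccag
Naa80: catagTGAATCAgagtttaggacaggcac

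In Sdcbp2, Ecm1 and Gm14137 the match lay close before the start, with its first base at positions -43, -64 and -60. The 200 bp of highest injured signal of Gm14137 ended at -106 and held 0 matches, so its printed match lies in the widened part. In Cyb561 the match began at -252. In Atg9b it began at -743, and in Themis3 a pair began at -778 and -753, so these stretches lie well upstream of the start. In Emp3 and Naa80 the printed matches began downstream of the first start, at 625 and 636 for Emp3 and at 688 for Naa80; the 200 bp stretch of Emp3 holds 3 matches, of which 2 are printed. The 200 bp stretches of Tinag (chr9:77046183-77046382) and Lrrc10b (chr19:10458229-10458428), not printed, held 1 match each, at -474 and -934. A match is a description of the letters and not evidence of a bound factor.

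All 10 members passed the filter on low counts, were called higher at a Benjamini-Hochberg adjusted p under 0.05 in that edgeR fit, and had every injured library above every uninjured one. Of all 17140 promoters, 2.21% were called higher (3.91% in either direction) and 13.0% had every injured library above every uninjured one; since the rule used this contrast, the selection fixed the members' calls and order, and nothing is read from them. Levels below are in CPM: cut sites within 1 kb of the first annotated start, scaled to the total of the library after TMM, given for replicates 1, 2 and 3 in turn. Errors are SDs over 3 libraries for levels and standard errors for log2 changes.

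The membrane proteins come first. Sdcbp2 encodes syntenin-2, a PDZ-domain adaptor of the plasma membrane, and its start is at chr2 position 151572622. Its promoter was at 0.901, 1.13 and 1.34 CPM in uninjured and at 10.2, 7.70 and 6.30 CPM in injured libraries. It was low in every uninjured animal, and the groups did not overlap. The group means were 1.12 ± 0.218 and 8.07 ± 1.98 CPM (SD, n = 3), 7.18-fold apart, with a log2 change of 2.81 ± 0.28. Emp3 encodes a tetraspan membrane protein of the PMP22 family. Its promoter was at 2.16, 2.66 and 2.87 CPM uninjured and 18.9, 16.95 and 9.15 CPM injured. Injured replicate 3 was about midway between the uninjured libraries and the other injured ones. The means were 2.57 ± 0.365 and 15.003 ± 5.16 CPM, 5.85-fold apart (log2 change 2.52 ± 0.26). Cyb561 encodes a cytochrome b561 that carries electrons from ascorbate across vesicle membranes. It was at 5.16, 5.24 and 5.17 CPM uninjured and 16.4, 13.4 and 12.2 CPM injured. Its uninjured values were the tightest of the 10 relative to their mean, and its injured values were close to each other. The means of 5.19 ± 0.0434 and 14.0 ± 2.13 CPM were 2.70-fold apart (log2 change 1.43 ± 0.16).

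Atg9b encodes a multispanning membrane protein of autophagy, the second mammalian ATG9. Its promoter was at 1.26, 0.879 and 0.682 CPM uninjured and 10.3, 11.7 and 5.64 CPM injured. It was the only member whose highest injured library was replicate 2; in the other 9 it was replicate 1. The means of 0.941 ± 0.294 and 9.22 ± 3.17 CPM were 9.80-fold apart (log2 change 3.34 ± 0.33).

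Secreted matrix proteins made up the next pair. Ecm1, a glycoprotein of the extracellular matrix, was at 1.92, 1.47 and 1.90 CPM uninjured and 16.3, 11.2 and 7.02 CPM injured. Tinag, a basement membrane glycoprotein first known from kidney tubules, was at 0.841, 1.25 and 0.881 CPM uninjured and 11.4, 9.25 and 4.86 CPM injured. Both promoters were low in uninjured cells, at percentiles 19.6 and 15.2 of the uninjured levels of tested promoters. They shared 1 order of the injured libraries, with replicate 1 highest and replicate 3 lowest. The means were 1.77 ± 0.254 and 11.5 ± 4.64 CPM for Ecm1, a 6.50-fold difference (log2 change 2.71 ± 0.30). For Tinag they were 0.990 ± 0.224 and 8.50 ± 3.33 CPM, an 8.59-fold difference (log2 change 3.08 ± 0.34). The window of Tinag overlaps that of Gm19541, a long noncoding RNA that starts 888 bp away on the other strand and whose window rose 9.25-fold, and cut sites carry no strand that would assign them to either gene.

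Naa80 encodes the N-terminal acetyltransferase of actin. Its first start was at 1.62, 1.73 and 1.59 CPM uninjured and 17.8, 16.3 and 7.16 CPM injured. The uninjured libraries were nearly equal, and injured replicate 3 was well below the other injured ones. The means of 1.65 ± 0.0722 and 13.7 ± 5.75 CPM were 8.34-fold apart (log2 change 3.05 ± 0.32). With a window of 500 bp either side, which leaves out the 200 bp of highest injured signal, the log2 change was 1.85.

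The remaining 3 are little characterised. Themis3, a member of the THEMIS family named for a T-cell signalling protein, was at 0.600, 1.16 and 0.426 CPM uninjured and 11.2, 11.01 and 4.11 CPM injured. Its means of 0.730 ± 0.384 and 8.79 ± 4.05 CPM were 12.04-fold apart (log2 change 3.55 ± 0.46). That log2 change was 2.79 with a window of 500 bp either side and 4.37 within the clusters high for basal markers. Gm14137, a predicted gene, was at 0.841, 1.76 and 1.68 CPM uninjured and 57.3, 39.6 and 20.1 CPM injured. It was the most strongly opened of the 10 and also the one with the widest spread among injured animals: the means were 1.42 ± 0.508 and 39.0 ± 18.6 CPM, 27.3-fold apart (log2 change 4.68 ± 0.51). These values rest on 14, 62 and 59 cut sites in the uninjured libraries. Lrrc10b, a leucine-rich repeat gene, was at 8.35, 6.92 and 9.61 CPM uninjured and 24.6, 20.7 and 17.7 CPM injured. It was the most open member before injury and had the smallest log2 change, 1.34 ± 0.15, with means of 8.29 ± 1.35 and 21.0 ± 3.49 CPM and a 2.53-fold difference. Scaling on 10 kb bins lowered the log2 changes of all 10 members, to 0.79 for Lrrc10b, 0.89 for Cyb561 and 1.96 to 4.13 for the others, and with a window of 500 bp either side that of Lrrc10b was 0.98.

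**Figure D1:**
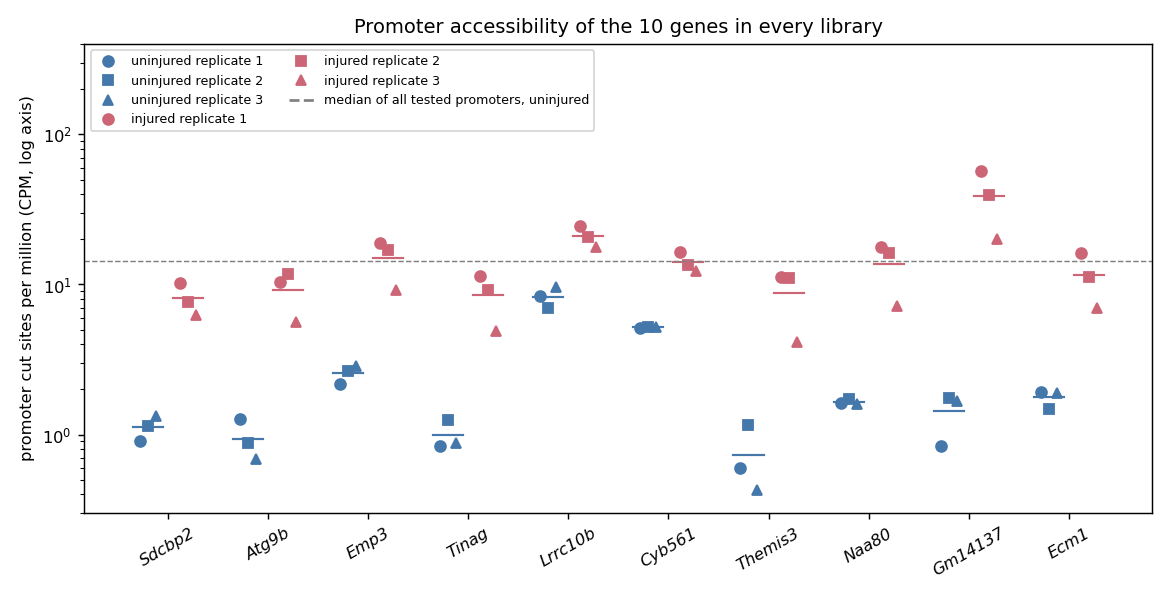
Promoter accessibility of the 10 members in each library (CPM within 1 kb of the first start, log axis), with 1 point a library, lines at the group means and a dashed line at the median of all tested promoters in uninjured libraries. Every injured point stands above every uninjured point of its gene, and injured replicate 3 is the lowest injured point in all 10.

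Before injury the members were below most promoters. Their median uninjured level was 1.54 CPM, against 14.4 CPM over all tested promoters, and 0 of the 10 were above that median. The members were chosen for a rise in this contrast, which favours low uninjured levels, so nothing is read from this. Lrrc10b and Cyb561, at 8.29 and 5.19 CPM, were the most open of them, at percentiles 36.7 and 30.2 of uninjured levels, and the other 8 were at percentiles 12.7 to 22.8. After injury their median was 12.6 CPM, still below the 14.7 CPM median of all tested promoters. The median log2 change was 2.93 for the members, 1.28 for the 378 promoters called higher and 0.00 for all tested. Non-members ranked among them by p were Atp6v0a4 at rank 3 and Kcnj13 at rank 4, both lower after injury (means of 32.6 and 16.3 CPM, and of 9.59 and 2.44 CPM), Gm11563 at rank 8 (log2 change 4.13) and Adam12 at rank 11 (3.34), just before Naa80 at rank 12; Themis3 stood at rank 43 and Gm14137 at rank 131.

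Injured replicate 3 gave the lowest injured value in 10 of 10 members. Its level was 0.511 times the mean of injured replicates 1 and 2 in the median member, with a range from 0.370 for Themis3 to 0.820 for Cyb561. Over all 378 promoters called higher this ratio had a median of 0.727, and replicate 3 was lowest in 79.4% of them; over all tested promoters the median ratio was 1.00.

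The openings lay at different places relative to the annotated starts. In Sdcbp2 and Ecm1 the 200 bp of highest injured signal covered the start itself, from -163 to 36 and from -126 to 73. In Cyb561 and Gm14137 it lay just upstream, from -292 to -93 and from -305 to -106. In Tinag, Atg9b, Themis3 and Lrrc10b it was farther upstream, and ended at -389, -599, -697 and -756. In Emp3 and Naa80 it lay inside the region transcribed from the first start, from 552 to 751 and from 556 to 755. The stretch of Emp3 also covers the start of another protein-coding transcript, Emp3-202, at 553. That of Naa80 ends before the second start of the gene, at 1230.

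Within these 200 bp the contrast was sharper than in the whole window for all members but Emp3 and Ecm1. Themis3 was at 0, 0.255 and 0.114 CPM uninjured and 5.32, 4.19 and 2.01 CPM injured there, a 31.2-fold difference of means. Atg9b was at 0.240, 0.283 and 0.256 CPM uninjured and 4.61, 4.34 and 2.68 CPM injured (14.9-fold). Gm14137 differed 31.0-fold, Naa80 17.3-fold and Tinag 10.8-fold. Sdcbp2, Ecm1, Emp3, Lrrc10b and Cyb561 differed 7.28-fold, 6.09-fold, 5.62-fold, 5.40-fold and 3.22-fold. All of these stretches were picked as the highest point of the injured signal, which raises the injured side of each ratio.

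**Figure D2:**
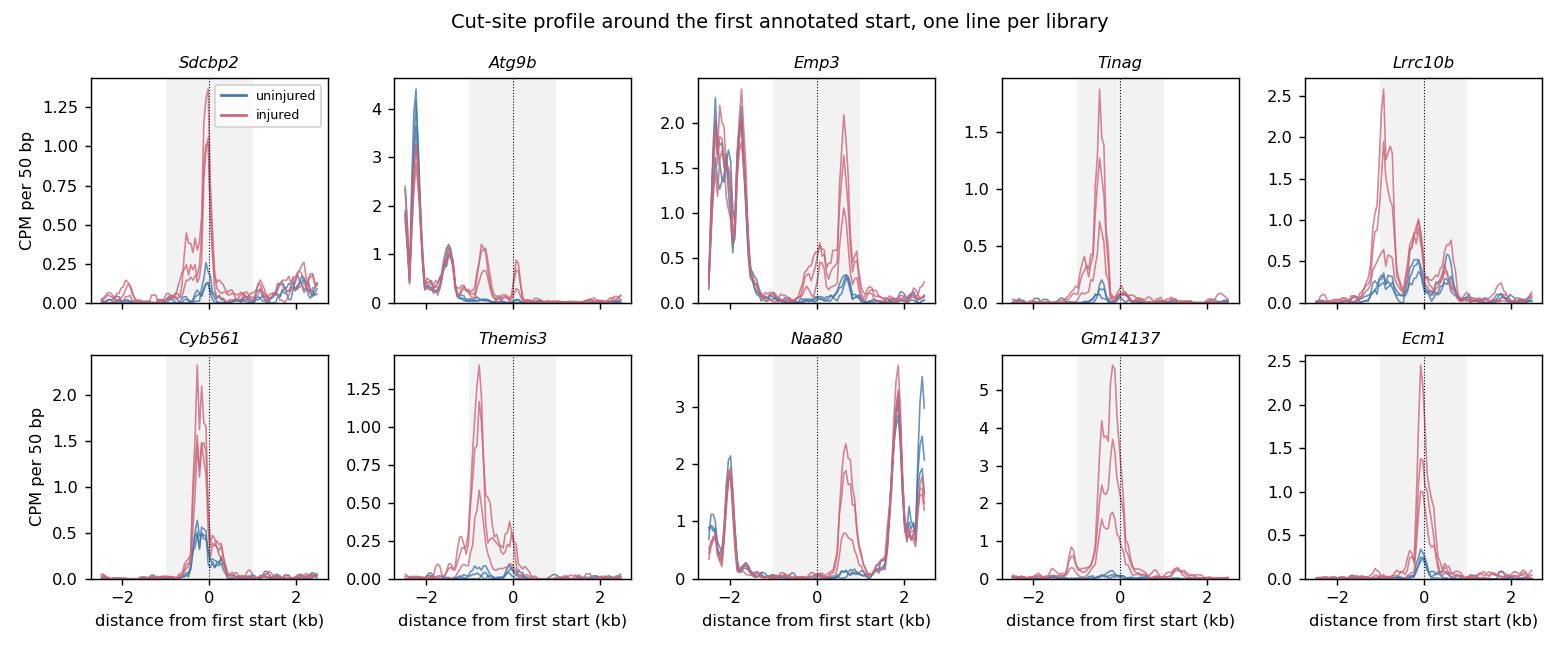
Cut sites around the first start of each member in 50 bp bins, as the running mean of 3 bins (CPM; distance from the start in kb, upstream to the left), with 1 line a library and the 1 kb window in grey. Injured lines rise at the start in Sdcbp2 and Ecm1, upstream of it in Atg9b, Tinag, Themis3 and Lrrc10b and downstream of it in Emp3 and Naa80.

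In Cyb561, Atg9b and Naa80 the starts of 1 gene differed. Cyb561 has 7 distinct starts. The 4 that lie 8849 to 9197 bp downstream of the first were at 19.9 to 30.4 CPM in every library, and their injured means were 1.02 to 1.04 times the uninjured ones. The 2 farthest, 15538 and 17159 bp downstream, were at most at 1.76 CPM in any library and differed 1.53-fold and 1.00-fold, beside 2.70-fold at the first start. Atg9b has a start 4177 bp into the gene, of the noncoding transcript Atg9b-202, which was at 7.51, 9.07 and 8.87 CPM uninjured and 9.47, 11.01 and 10.6 CPM injured, a 1.22-fold difference beside 9.80-fold at the first start.

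Naa80 showed the same contrast over a much shorter distance. The 500 bp tile 864 bp downstream of its first start was at 0.901, 0.935 and 1.17 CPM uninjured and at 13.5, 11.5 and 5.04 CPM injured. The tile centred 1864 bp downstream was at 17.4, 16.9 and 18.6 CPM uninjured and 19.7, 18.5 and 18.2 CPM injured, so an open element 1 kb away was hardly altered. That tile holds the annotated start of another gene, Hyal3, 1931 bp downstream of the first start of Naa80. The second start of Naa80, 1230 bp downstream, has both tiles in its window and differed 1.60-fold, so its level includes cut sites at the start of Hyal3. In Ecm1 a start 4551 bp into the gene, of the retained-intron transcript Ecm1-207, opened as well, from 2.82, 3.66 and 2.19 CPM to 11.2, 11.2 and 9.61 CPM (3.69-fold), and there injured replicate 3 was close to the others. All 5 starts of Emp3 lie within 1284 bp and differed 4.43-fold to 6.23-fold, since their windows share cut sites.

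**Figure D3:**
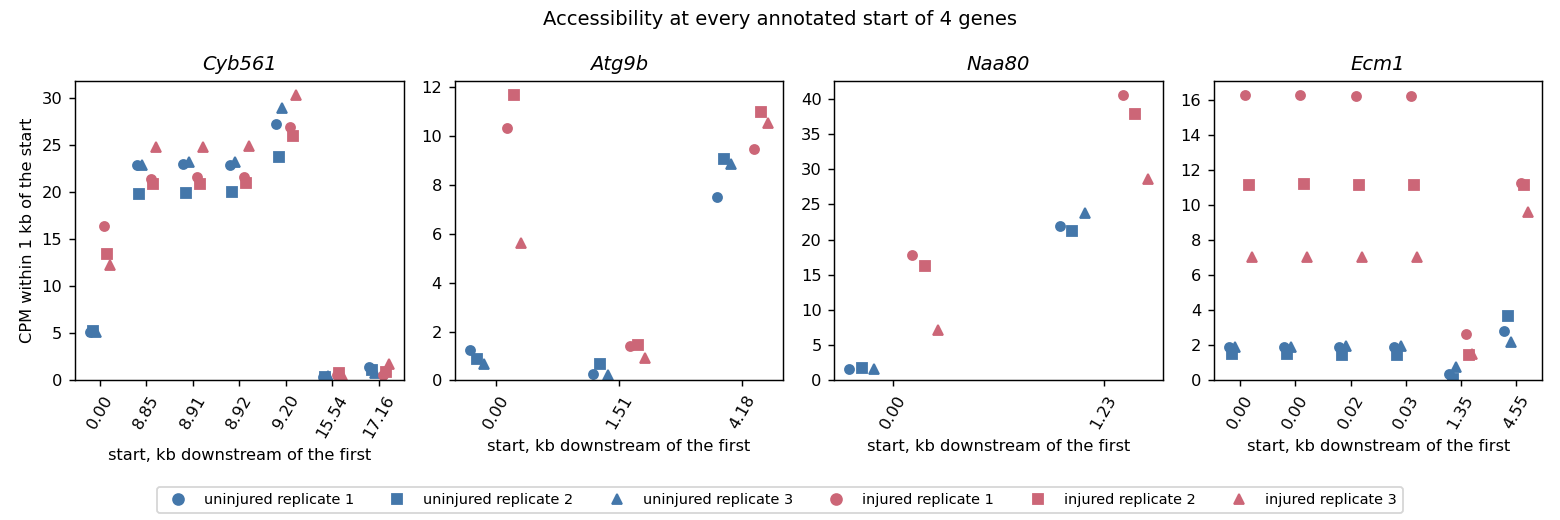
Accessibility within 1 kb of each distinct annotated start of Cyb561, Atg9b, Naa80 and Ecm1 (CPM per library, ordered by distance from the first start). The first start is low in uninjured libraries and higher in injured ones in all 4 genes, while the 4 starts of Cyb561 that lie 8849 to 9197 bp downstream are at 19.9 to 30.4 CPM in both groups.

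To see which cells carried the cut sites, 4359 cells were clustered on accessibility without the regions of the members (10 clusters). Cluster CPMs are scaled to the total of those cells, without TMM. The signal of the horizontal basal markers over gene bodies summed to 389 to 496 CPM in clusters 1, 2, 5, 9 and 10 and to at most 205 CPM elsewhere; this grouping was made after the values were seen, and cell names are not given to single clusters. Cluster 9 held 1362 cells, 1360 of them injured, and its leading genes included Krt16 and Krt6a, keratins of wounded epithelium, and Gm14137, whose region was left out of the clustering but not of this ranking of genes.

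Cluster 9 carried most of the injured member signal. It held 54.9% of the cut sites of clustered injured cells and 80.0% of their cut sites at member promoters. The 10 promoters summed to 212 CPM there, against 73.0 CPM in the 650 injured cells of cluster 2, 28.9 CPM in the 352 uninjured cells of cluster 2 and 23.9 CPM in the 1018 uninjured cells of cluster 1. The 28 injured cells of cluster 5, another cluster high for the basal markers, summed to 221 CPM, against 24.7 CPM in its 60 uninjured cells, and the 50 injured cells of cluster 3 to 90.0 CPM. In uninjured cluster 10, with 168 cells of which 165 came from replicate 3, they summed to 41.5 CPM.

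Injured replicate 3 differed from the others in how many of its cells were in cluster 9. The cluster took 73.7%, 60.4% and 20.4% of the clustered cells of injured replicates 1, 2 and 3. Within it the summed member level was 216, 211 and 197 CPM, and the ratio of replicate 3 to the mean of the other 2 was 0.922 in the median member (range 0.767 to 1.24), beside 0.511 over all cells. Replicate 3 was the lowest injured library in 6 of 10 members in cluster 9, beside 10 of 10 over all cells. The values over all cells use TMM and those of cluster 9 do not, so these ratios and counts are not on the same scale. The TMM factors of injured replicates 1, 2 and 3 were 0.880, 0.867 and 0.974, which lowers replicate 3 relative to the others over all cells only.

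By member, cluster 9 was at 63.7 CPM for Gm14137, 25.2 for Lrrc10b, 20.5 for Naa80, 20.3 for Emp3, 16.4 for Ecm1, 15.7 for Cyb561, 13.4 for Atg9b, 13.4 for Themis3, 12.4 for Tinag and 10.6 for Sdcbp2. Cyb561 was as open in the injured cells of cluster 2 (16.6 CPM). Restricting the fit to the 5 clusters high for the basal markers gave a median log2 change of 3.01 for the members, beside 2.93 over all cells. The groups fill different clusters of these 5: cluster 9 is nearly all injured, and 1018 of the 1037 cells of cluster 1 were uninjured. In cluster 2, which both groups fill, the summed levels of 73.0 and 28.9 CPM were closer than those of clusters 9 and 1, and the groups overlapped for Tinag, Lrrc10b and Cyb561. With finer clustering (resolution 1), a cluster of 391 injured and 9 uninjured cells summed to 80.7 CPM. Another, of 181 injured and 293 uninjured cells, summed to 43.6 CPM. Whether the injured and uninjured cells of cluster 2 are alike in type was not tested.

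**Figure D4:**
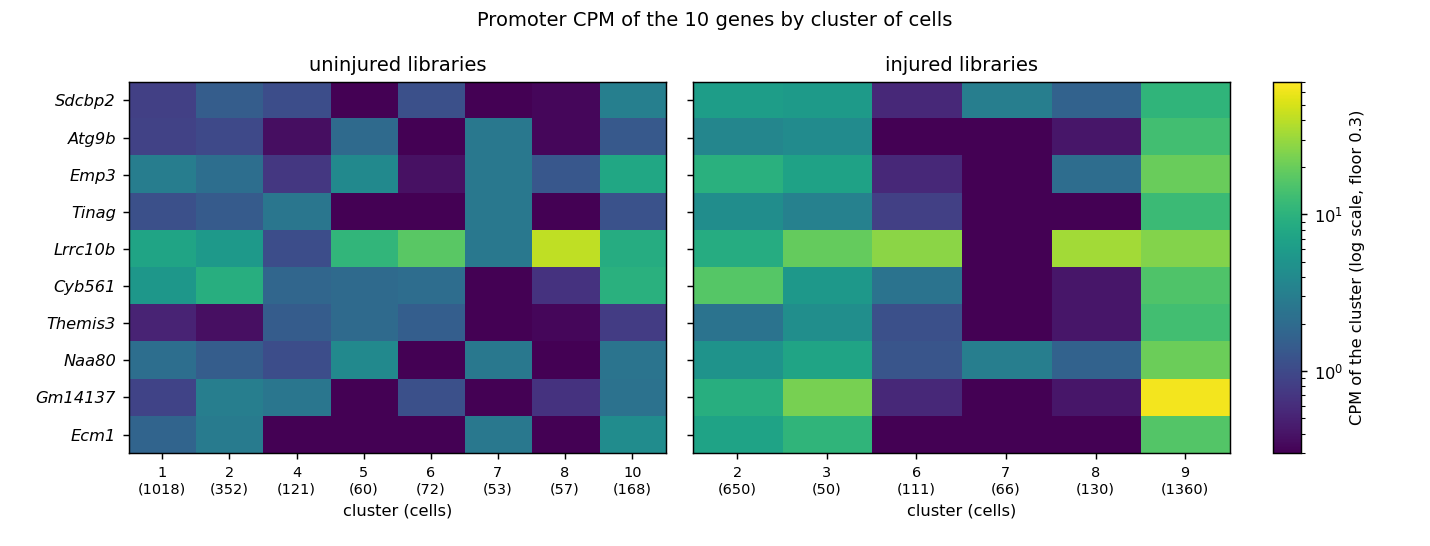
Member promoters by cluster and group (CPM of the cells, colour on a log scale from 0.3; clusters with at least 50 cells of the group). Injured cluster 9 is the brightest column for most members, and Lrrc10b is also bright in clusters 8 and 6 of both groups.

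Lrrc10b was the exception in its cell distribution. It was highest in cluster 8, whose leading genes included Omp, S100a5 and Gng13 and whose summed signal of olfactory sensory neuron markers was the highest of the clusters, at 41.6 CPM in 57 uninjured and 32.8 CPM in 130 injured cells. The other members were at 0 to 2.10 CPM in the injured cells of that cluster. The parts of the Lrrc10b window differed: the tile centred at -278 was at 17.2 and 13.9 CPM in uninjured and injured cluster 8 and at 6.13 CPM in cluster 9. The tile centred at -778, which holds the stretch of highest injured signal, was at 16.0 CPM in cluster 9, 7.27 and 4.41 CPM in cluster 8 and 2.24 CPM in uninjured cluster 1. The sensory neuron markers summed over promoters to 47.0 to 58.5 CPM in uninjured and 36.1 to 76.5 CPM in injured libraries, and their part in the Lrrc10b level was not tested.

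Marker lists of other cell types are given as summed promoter levels. For 8 immune genes it was 1.92 to 2.61 CPM uninjured and 3.80 to 6.19 CPM injured, with Ptprc, Tyrobp, Coro1a and Spi1 each at 0 in at least 1 library. For 6 stromal and endothelial genes, none at 0, it was 15.5 to 16.6 and 18.1 to 22.3 CPM, and for 4 sustentacular genes, none at 0, it was 12.7 to 23.6 and 6.07 to 8.20 CPM. By edgeR 1 of the sustentacular genes, Ermn, was called lower, at 10.99, 15.4 and 10.5 CPM uninjured and 5.44, 4.97 and 4.03 CPM injured. Each of these 3 list sums gave p = 0.1 in an exact two-sided permutation test, the smallest that 3 against 3 allows, so no list could pass 0.05, and 0.3 after Benjamini-Hochberg adjustment over 9 lists. The horizontal basal, sensory neuron, neuronal precursor, microvillar, gland and ciliated lists had group means of 98.5 and 102, 51.8 and 51.7, 22.4 and 24.5, 31.3 and 33.9, 51.9 and 45.5, and 60.9 and 46.4 CPM in uninjured and injured libraries, with p from 0.3 to 1 in the same exact permutation test. In injured replicate 3 the horizontal basal list summed to 77.9 CPM, beside 116 and 112 CPM in injured replicates 1 and 2. The sensory neuron list summed to 76.5 CPM in injured replicate 3, beside 42.5 and 36.1 CPM. The part of the lists in the member levels was not tested.

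The promoters were also counted cell by cell. With each cell thinned to 4000 cut sites, the share of cells with a cut site at the Gm14137 promoter was 0.350%, 0.639% and 0.806% in uninjured and 17.2%, 12.7% and 5.98% in injured libraries. It was 21.6% in cluster 9 and 0.0565% in the injured cells of cluster 8. The median member went from a mean share of 0.631% to one of 4.12%; without thinning these were 2.79% and 17.8%. The lowest injured mean was 2.74% for Tinag and Themis3, and the second highest was 6.60% for Lrrc10b, up from 3.00%.

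The number of members with a cut site in a cell was counted without thinning. The share of cells with cut sites at 3 or more member promoters was 0.220%, 2.25% and 3.02% in uninjured and 35.0%, 41.7% and 20.2% in injured libraries. These shares rise with depth and with doublets, which were not called, and whether members opened together beyond their single shares was not tested. No uninjured cell had more than 5 members open, and 1 or more cells of injured replicate 3 had all 10.

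With the promoter windows included, 1606 tiles of 500 bp covered the gene bodies and 30 kb each side, and 158 of them had a mean of at least 1 CPM. Of these 41 were at least 2-fold higher after injury without overlap of the groups, and 0 were lower by the same rule. That is 25.9%, beside 13.7% higher and 2.77% lower of the 150177 such tiles of the genome. Tiles were scaled with the TMM factors of the promoter fit, and these shares depend on that scaling. The 25.9% includes tiles in the promoter windows that chose the members. Away from the members' starts it was 19 of 124 tiles, or 15.3%.

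The largest distal rise was in the Ecm1 region, at chr3:95726001-95726500 and 13318 bp downstream of the start. That tile was at 0.0600, 0.0567 and 0.0853 CPM uninjured and 6.86, 5.21 and 1.93 CPM injured, a 69.3-fold difference that rests on very few uninjured cut sites. Next to Gm14137, chr2:119173001-119173500, centred at -1258, was at 0.0600, 0.0850 and 0.142 CPM uninjured and 3.29, 2.97 and 1.47 CPM injured (26.9-fold). Near Atg9b, chr5:24404501-24405000, centred at -12608, was at 0.360, 0.0283 and 0.284 CPM uninjured and 2.99, 3.41 and 0.949 CPM injured (10.9-fold). All 3 were nearly closed before injury, and in all 3 injured replicate 3 was the lowest of its group. In the regions of Lrrc10b, Cyb561, Emp3 and Sdcbp2 the tile that rose most differed 5.81-fold, 5.18-fold, 4.04-fold and 2.22-fold. For Naa80 and Themis3 the groups overlapped in that tile, and Tinag had no tile of 1 CPM outside its promoter.

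In the 9 regions that had a tile of 1 CPM away from the starts, the most open such tile had injured means of 0.904 to 1.33 times the uninjured ones. Less open tiles did rise, such as chr5:24361001-24361500 in the Atg9b region, from 1.51 to 3.43 CPM in the means (2.27-fold). Over the whole region without the promoter windows, Ecm1 differed 2.00-fold, Lrrc10b 1.64-fold, Tinag 1.62-fold and Themis3 1.43-fold, and the other 6 from 1.02-fold to 1.38-fold. These sums use the TMM factors of the promoter fit, and no other scaling is given for them. On total cut sites and 10 kb bins the median log2 change of all promoters moved to -0.28 and -0.53, so small regional differences depend on the scaling. The value for Tinag came from injured replicate 2, at 30.1 CPM beside 15.8 and 16.3 CPM in replicates 1 and 3. Over barcodes with at least 20% of cut sites in open chromatin that library was at 13.7 CPM and the difference for Tinag was 1.16-fold.

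Of 33 other annotated starts in these regions, 18 were of protein-coding genes. The windows of 15 did not overlap that of the member, and their promoters were tested in the same fit. By edgeR with Benjamini-Hochberg adjustment 0 of 15 passed 0.05, 4 had an unadjusted p under 0.05 (Tars2, Sema3b, Rassf1 and Nos3), and DESeq2 called 1, Tars2. The log2 changes ran from -0.10 to 1.96 with a median of 0.08. The 15 are not all separate measurements: Syngr4 and Tmem143, 24690 and 24463 bp from the start of Emp3, share most of their windows.

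Tars2, a mitochondrial threonyl-tRNA synthetase gene at -20637 bp from the start of Ecm1, was at 0.180, 0.737 and 0.370 CPM uninjured and 2.10, 2.14 and 1.09 CPM injured. The groups did not overlap, but levels were low and rested on 3 to 83 cut sites a library. Its log2 change was 1.96 ± 0.52 with an edgeR adjusted p of 0.0515. Of the 19 settings tried, it was not tested with a window of 500 bp either side. In the others its adjusted p (edgeR or DESeq2) ran from 0.0144 to 0.185, under 0.05 in 8. The nearest tested neighbours of the other members had log2 changes of 0.11 ± 0.08 for Ccdc114 (Emp3), 0.17 ± 0.10 for Gchfr (Gm14137), -0.03 ± 0.10 for Ifrd2 (Naa80), 0.02 ± 0.22 for Ace (Cyb561), 0.34 ± 0.48 for Asic3 (Atg9b) and 0.02 ± 0.33 for Ppp1r32 (Lrrc10b). Sdcbp2 has no neighbouring start, and Tinag and Themis3 have no protein-coding one outside their windows. None of these 6 neighbours passed the test, and their edgeR adjusted p-values were 0.34 to 0.98. Within the basal-marker clusters Gchfr was called higher (log2 change 0.36, adjusted p = 0.0348), and on 10 kb bins Gchfr, Ccdc114 and Ifrd2 were called lower (-0.37, -0.43 and -0.56). For Ccdc114 and Gchfr, 2668 and 6736 bp from their members, the groups overlapped.

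Close neighbours with overlapping windows were left out of that count. Abcb8, which starts 1520 bp upstream of Atg9b, was at 32.6, 29.02 and 31.1 CPM uninjured and 33.6, 35.0 and 33.0 CPM injured (1.10-fold). Hyal1 and Hyal3, within 2 kb of the first start of Naa80, differed 0.914-fold and 0.917-fold. These promoters were open before injury, and their group means differed little. For Abcb8 every injured library was above every uninjured one, and for Hyal3 every injured library was below. The window of Abcb8 also holds the 200 bp of highest injured signal of Atg9b, so its value includes that stretch.

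**Figure D5:**
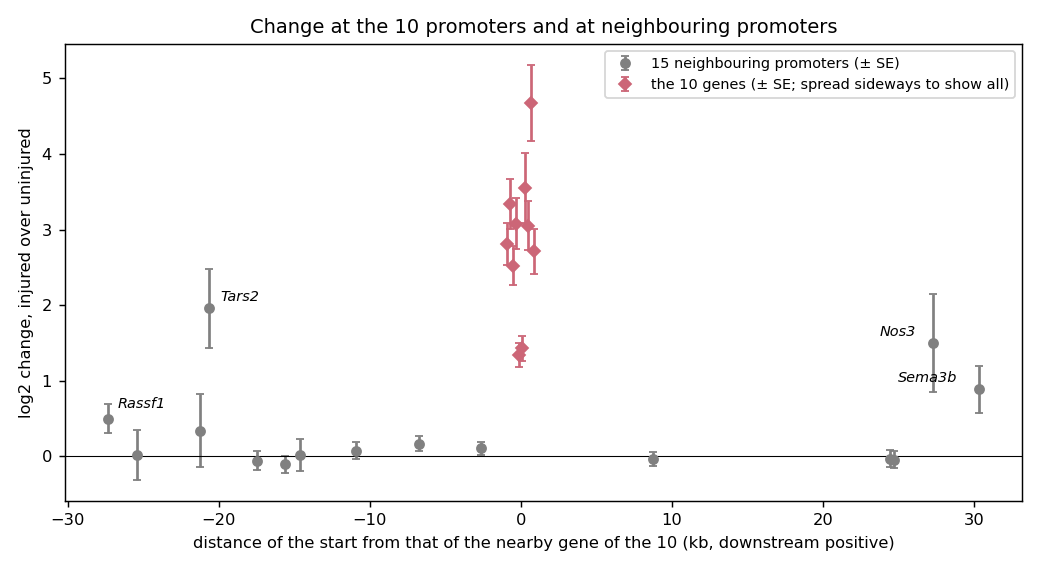
Log2 change after injury (± SE) against the distance from the first start of the member, for the 10 members at 0 and 15 neighbouring promoters. The members lie between 1.34 and 4.68, and the neighbours between -0.10 and 1.96, with Tars2 the highest.

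Relatives and known partners of the members were looked up in the same fit: 72 genes in 5 lists, of which 70 were tested. By edgeR 2 were higher and 2 lower at an adjusted p under 0.05, beside 2.21% higher and 1.71% lower of all promoters, and 13 had an unadjusted p under 0.05. Among 14 close relatives 2 rose, with a list median log2 change of 0.03. Sdcbp, which encodes syntenin-1, was at 33.0, 31.2 and 33.3 CPM uninjured and 45.3, 39.9 and 41.1 CPM injured, a log2 change of 0.38 ± 0.08 (edgeR adjusted p = 0.0190). Emp1 was at 18.4, 21.9 and 26.7 CPM uninjured and 35.0, 32.5 and 28.5 CPM injured, 0.51 ± 0.12 (edgeR adjusted p = 0.0427). Both were open before injury, unlike Sdcbp2 and Emp3, and both lost the call and turned slightly negative, to -0.17 and -0.03, when libraries were scaled on 10 kb bins, which moved the median of all promoters to -0.53. Sdcbp was under 0.05 in 13 of 19 settings and Emp1 in 12; both lost the call on total cut sites (adjusted p of 0.513 and 0.163), and Emp1 also within the basal-marker clusters (0.0511). Leaving out uninjured replicate 1 or 2 or injured replicate 1 ended all 4 calls over the lists, and leaving out injured replicate 2 left 1.

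The other close relatives did not pass the test. Pmp22 was at 0.240, 0.709 and 0.910 CPM uninjured and 1.29, 1.75 and 2.33 CPM injured, with a log2 change of 1.46 ± 0.48 (edgeR adjusted p = 0.101). Atg9a, the widely expressed ATG9, was at 34.6 to 36.6 CPM uninjured and 31.3 to 35.7 CPM injured (log2 change -0.09), beside the 9.80-fold opening of Atg9b. Emp2 had -0.20, Lim2 -0.16, Tinagl1 0.11, Lrrc10 0.41, Themis 0.44, Themis2 0.84, Ecm2 -0.06, and Cyb561a3, Cyb561d1 and Cyb561d2 -0.05, -0.14 and -0.13. Of these, Lim2, Themis, Themis2, Ecm2 and Lrrc10 were at most at 2.16 CPM in any library.

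Of 30 autophagy genes tested, 0 were higher and 2 lower by edgeR, and the list median was -0.11. Both encode ubiquitin-like proteins of the autophagosome membrane. Map1lc3a went from 43.0, 40.4 and 40.9 CPM to 27.7, 32.7 and 31.6 CPM (log2 change -0.43 ± 0.08, edgeR adjusted p = 0.0120). Gabarap went from 30.1, 28.1 and 29.5 CPM to 22.9, 21.1 and 24.3 CPM (-0.36 ± 0.09, edgeR adjusted p = 0.0396). Their changes were negative in all 19 settings, with an adjusted p under 0.05 in 16 and 13. In both every injured library was below every uninjured one, the opposite direction to Atg9b. The kinase gene Ulk1 had -0.32 (edgeR adjusted p = 0.0514, DESeq2 adjusted p = 0.0355, and under 0.05 in 7 of 19 settings).

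By edgeR 0 genes passed in the other lists; Hspg2 and Sdc1 were the genes with an unadjusted p under 0.05 there, and DESeq2 called 1 gene, Hspg2. Among 11 N-terminal acetyltransferase genes the median was -0.05, and the smallest adjusted p-values by edgeR were those of Naa30 (0.248), Naa10 (0.280) and Naa38 (0.390). Among 12 matrix partners of Ecm1 and Tinag the median was 0.10. Hspg2, which encodes perlecan, had -0.40 (edgeR adjusted p = 0.0620, DESeq2 adjusted p = 0.0436, and under 0.05 in 6 of 19 settings), and the laminin gene Lamb3 had 0.51 (edgeR adjusted p = 0.343). Among 4 syndecan genes, whose products syntenins bind, the median was -0.09, and Sdc1, Sdc4 and Sdc2 had -0.28, -0.15 and -0.03. A p that misses the threshold does not show that these promoters were unchanged.

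The choice of the members fixed much of their profile over the libraries. Over the 6 libraries, the correlation of each member's log2(CPM + 0.5) with the mean of all 10, itself included, was 0.979 to 0.997, a description of points that share the same libraries and, through the rule, the same contrast. Outside the regions of the members, the promoters most like that mean were Tma7, Apcs and Spata4, with Pearson's r of 0.998, 0.998 and 0.997. Their sizes differed: Tma7 was at 15.7 to 15.9 CPM uninjured and 17.8 to 18.9 CPM injured (log2 change 0.23). Apcs, the serum amyloid P gene, was at 0.0568 to 0.120 CPM and 1.04 to 2.08 CPM (4.05), and Spata4 at 2.10 to 2.40 and 6.36 to 9.67 CPM (1.88). Of 17112 promoters compared, 286 had r above 0.95.

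Sequence was described in the 500 bp tile of each promoter with the highest mean signal. The injured libraries enter that mean, so for the members the tile was picked in part by the signal that chose them, and the shares below are not independent of it. In these tiles 9 of 10 members held the AP-1 motif TGANTCA, beside 9.71% of all 17140 promoters and 40.2% of the other 368 promoters called higher. The tenth, Cyb561, has its match just outside that tile, in the stretch printed above. Emp3 held 3 matches, and Themis3, Naa80 and Gm14137 held 2 each. In the 300 bp RefSeq promoter around the start, which 8 members have in the table (not Cyb561 or Themis3), 3 of 8 held the motif, beside 5.85% of 13076 promoters and 25.2% of the others called higher.

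Other motifs were not as frequent in the 500 bp tiles of the members, searched on both strands. The KLF/SP box GGGCGGG was in 2 of 10, beside 48.1% of all promoters, and the ETS motif CCGGAAG in 0 of 10, beside 17.04%. The RUNX motif TGTGGTT and the TEAD motif ACATTCC were in 1 of 10 each, beside 6.47% and 4.22%. The CEBP motif TTGCNNAA was in 3 of 10 (12.7% of all) and the antioxidant motif TGACNNNGC in 3 of 10 (21.0% of all). CRE (TGACGTCA), NF-kB, p53-family and CTCF motifs were in 0 of 10, beside 2.96%, 0.607%, 0.513% and 0.0583% of all promoters. With 10 tiles, absence of these letters says nothing of the factors.

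Base composition was also described. The median GC content of their tiles was 51.7% (range 44.8% to 59.4%), beside 60.4% over all promoters and 54.5% over the others called higher. The ratio of observed to expected CpG dinucleotides was 0.168 in the median member (range 0.0413 for Themis3 to 0.382 for Lrrc10b), beside 0.707 over all promoters and 0.324 over the others called higher. In the 300 bp RefSeq promoters of 8 members, which no signal picked, the median ratio was 0.208, and the range ran up to 0.778 for Lrrc10b, above the median of 0.707 over 13076 promoters. Their GC content there ran from 31% for Tinag to 76.3% for Lrrc10b.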

How the data were processed

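Fragments of 6 single-cell ATAC libraries were used as deposited: the authors' files give raw counts of read pairs for each fragment and barcode. Per the submitters' processing notes the tools and build included Cell Ranger 2.0.0 and mm10; the matrix headers name version 1.2.0. Here each fragment end was 1 cut site, and barcodes with 2000 or more fragments were kept as cells. Doublets were not called; leaving out the 10% deepest barcodes was an alternative. Cut sites within 1000 bp of the first start of each protein-coding gene (GENCODE vM21, GRCm38) were summed by library and tested with edgeR 4.0.16 (TMM, filterByExpr, quasi-likelihood F-test, Benjamini-Hochberg adjustment, threshold 0.05) in R 4.3.3. CPM uses TMM-scaled totals unless stated. Clusters used TF-IDF, truncated SVD and Leiden at resolution 0.5 (scanpy 1.11.5), without the members' regions. Paired cut sites of a fragment are not independent, cells are not replicates, and shares of cells are given without an interval.

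The members, gene lists and tests were chosen with earlier results of these data known. Named genes were the 10 members, each nearest neighbour, the 3 smallest adjusted p-values in each list (1 gene is not reported here), all close relatives, and the 3 promoters most like the members' mean; Atp6v0a4, Kcnj13, Gm11563 and Adam12 were named after their values were seen. Alternatives covered DESeq2 1.42.0, scaling, filters, window, barcodes, clusters, replicate block and left-out libraries. Marker lists covered horizontal basal, sustentacular, sensory neuron, neuronal precursor, immune, microvillar, gland, ciliated, and stromal and endothelial cells.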

Additional observations from a re-analysis of the deposited data

How the results depend on the processing

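Single-member log2 changes kept their sign under all 18 alternatives, with 180 values from 0.79 to 5.08. The choice of the members fixes that sign, so it is no sign of stability. Of these values 161 moved by less than the pooled within-group SD of the member's log2(CPM + 0.5) over libraries, which is not the standard error given above. The other 19 moved further, 14 of them towards 0. With 500 bp windows, and without uninjured replicate 1, 2 or 3, 9 of the 10 members were called higher. The median member change was 2.38 with scaling on 10 kb bins and 2.71 to 3.17 with 1 library left out. All promoters higher (378) and lower (293) became 623 and 539 by DESeq2, 767 and 473 within basal-marker clusters, and 1041 and 725 without both replicate 3 libraries. Lower calls became 9827 on 10 kb bins, 6589 on total cut sites, 179 with 500 bp windows and 193 over barcodes with 20% in open chromatin. With 1 library left out, higher calls ran from 69 to 766 and lower calls from 31 to 610; the highest of both came without injured replicate 3. Relatives called (4) became 49 on 10 kb bins, 37 on total cut sites and 0 to 6 with 1 library left out. Neighbours called (0) became 1 by DESeq2, 9 on 10 kb bins, 4 on total cut sites, 1 with no filter, 2 within basal-marker clusters, 2 without both replicate 3 libraries and 0 to 3 with 1 library left out. Among calls, 56.3% were higher in the fit as reported, 2.74% on 10 kb bins and 5.95% on total cut sites, which moved the median of all promoters to -0.53 and -0.28. Tiles higher near members (41) became 24 at a mean of 2 CPM, 26 within 10 kb and 31 to 45 with 1 library left out. The median member share (4.12%) became 17.8% without thinning, 7.64% at 8000 cut sites and 3.33% to 4.82% with 1 injured library left out, and the AP-1 share (90%) became 37.5% in 300 bp promoters. The causes were not tested. The comparison without both replicate 3 libraries, that without copies of shared barcodes and that of tiles in open barcodes were chosen after seeing the data.

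The labels give both groups replicate numbers 1 to 3. Deviations of same-numbered libraries correlated at 0.04, 0.17 and 0.20, and injured replicates 2 and 3, but not injured replicate 1, correlated best with the uninjured library of their own number. Same-numbered animals also share an age, and the replicate 3 libraries share barcodes, but no label ties the numbers to a litter or day, so the fit as reported has no block. With the replicate block 774 promoters were higher and 1010 lower, 10 relatives and 2 neighbours were called, and the median member change was 2.85.

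Depth limits the uninjured side: member windows other than those of Lrrc10b and Cyb561 held 10 to 101 cut sites in each uninjured library.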
